A study of Mus musculus with 28 samples.

Results

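Interferon-stimulated genes are the transcripts that cells raise when an interferon binds its receptor. A list of 42 such genes was followed here in mouse ovaries after a low dose of ionizing radiation. The list was set by gene name, with no threshold on a measured value, at a time when earlier results of these data were known. All 42 genes were among the 44674 genes of the bulk RNA-seq table, and 41 of them were in the gene list of the single-cell libraries, which held 31053 genes and lacked Mx2. Wild-type (WT) C57BL/6J females and females homozygous for the Chek2tm1b(EUCOMM)Hmgu allele (Chek2-/-) received a sham treatment (nonIR) or 0.5 Gy to the whole body (IR), and the ovaries were collected 6 h later. The methods of the study did not state the strain background of the Chek2-/- females. Background or colony differences thus cannot be told apart from the allele where the genotypes are compared. Chek2 encodes a checkpoint kinase activated by DNA damage, and the deletion is present in every cell of the animal, so the somatic cells and the oocytes of the Chek2-/- groups lack it alike. Bulk libraries of poly(A) RNA were made from paired ovaries of females aged 7 to 9 days, with 6 libraries in each of the 4 groups. Single-cell libraries were made from dissociated ovaries of 7-day-old females, with the ovaries of 4 females pooled in each and 1 library per condition.

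Interferons fall into type I (alpha, beta, epsilon), type II (gamma) and type III (lambda). Types I and III act through different receptors but both activate JAK1 and TYK2, and the signal leads to ISGF3, a transcription factor complex with STAT2 and IRF9 that binds the interferon-stimulated response element (ISRE). Type II interferon acts through the GAS element. The receptor for type I interferon is found on nearly all cells, whereas that for type III interferon is mostly found on epithelial cells. The products block steps of viral replication. IFIT proteins bind foreign RNA, OAS enzymes activate RNase L, and ISG15 is a ubiquitin-like modifier.

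The response element can be read directly in the promoters of the genes. The RefSeq promoter table (build GRCm38.p6) matched 34 of the 42 genes with 39 promoters, and Usp18, Oas2, Mx1, Mx2, Rtp4, Iigp1, Parp9 and Parp14 had no entry. The ISRE core GAAANNGAAA, searched on both strands so that TTTCNNTTTC also counts, was present within 250 bases upstream of the transcription start in 17 of the 34 genes (50%). It was present in 936 of all 27025 genes with a promoter (3.46%). The GAS element TTCNNNGAA was present in 9 of the 34 genes (26.5%), against 8.13% of all genes. Eif2ak2, Samd9l, Irf1, Irf9, Dtx3l and Lgals3bp, also named below, were among the genes without an ISRE core. The windows around the core nearest the start are shown for genes with a core to which the measurements below return. Each core is in capitals and the strand of the gene is in parentheses. All are 5′ to 3′ on the strand of the gene.
Isg15, chr4:156200850-156200909 (-): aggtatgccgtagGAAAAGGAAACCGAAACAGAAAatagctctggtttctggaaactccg
Ifit1, chr19:34640779-34640838 (+): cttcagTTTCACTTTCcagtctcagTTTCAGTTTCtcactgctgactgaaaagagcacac
Ifit3, chr19:34583382-34583441 (+): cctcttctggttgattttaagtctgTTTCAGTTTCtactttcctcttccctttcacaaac
Ifit3b, chr19:34607778-34607837 (+): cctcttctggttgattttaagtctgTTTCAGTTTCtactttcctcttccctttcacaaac
Oas1a, chr5:120907526-120907564 (-): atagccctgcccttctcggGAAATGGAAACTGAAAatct
Oas3, chr5:120777700-120777759 (-): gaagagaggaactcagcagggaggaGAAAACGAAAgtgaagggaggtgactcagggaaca
Gbp2, chr3:142620579-142620638 (+): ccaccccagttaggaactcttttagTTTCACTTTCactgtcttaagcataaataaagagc
Irgm1, chr11:48871421-48871469 (-): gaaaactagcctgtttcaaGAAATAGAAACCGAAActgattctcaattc
Stat2, chr10:128270251-128270310 (+): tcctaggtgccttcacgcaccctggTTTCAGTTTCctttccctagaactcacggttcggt
Rsad2, chr12:26456538-26456597 (-): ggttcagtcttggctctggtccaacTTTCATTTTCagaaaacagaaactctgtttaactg
Bst2, chr8:71537562-71537621 (-): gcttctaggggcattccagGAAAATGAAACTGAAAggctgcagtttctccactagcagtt
The windows of Ifit3 and Ifit3b were identical, and these genes are near-identical copies whose reads can be divided between them by the counting. In Isg15, Oas1a, Irgm1 and Bst2 overlapping cores ran together into one block, and Ifit1 had separate cores. Ifit3 and Ifit3b each had a second core that the window does not show. A match in these letters is a description of the sequence and not evidence of binding.

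The bulk libraries held 17825167 to 32605747 counts. Values are given as CPM (counts scaled to the library total) after TMM scaling, as the lowest, median and highest of the 6 libraries in a group. Chek2 was at 19.8, 22.5 and 24.6 CPM in WT nonIR and at 2.88, 3.72 and 4.44 CPM in Chek2-/- nonIR ovaries, a log2 difference of -2.58 ± 0.10 (SE, edgeR quasi-likelihood test, adjusted p = 7.45e-15). In WT IR ovaries it was at 18.5, 21.3 and 23.5 CPM and in Chek2-/- IR ovaries at 3.34, 4.05 and 4.53 CPM. Every Chek2-/- library was thus below every WT library. The markers of oocytes, granulosa cells and fibroblasts were present in all 24 libraries. Replicates 6 of both Chek2-/- groups stood apart, with Xist at 0.423 and 0.569 CPM against 711.8 to 1376 CPM in the other 22 libraries, and with the lowest summed oocyte markers (2580 and 2971 CPM, against 3842 CPM or more elsewhere). Replicate 3 of WT IR and replicate 2 of Chek2-/- IR had 851 and 902 CPM of neutrophil markers, against at most 13.99 CPM elsewhere.

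The level of the gene list itself separated the libraries (the plot of the median level in each library). For each library the median over the 42 genes of log2(CPM + 0.1) minus the WT nonIR median was taken. In WT nonIR ovaries it lay between -0.24 and 0.13 in 5 libraries and was 1.01 in replicate 5, which was the highest of its group for 39 of the 42 genes. In WT IR ovaries it lay between 0.33 and 1.21. In Chek2-/- nonIR ovaries it lay between -0.16 and 0.60. In Chek2-/- IR ovaries it lay between -0.10 and 0.25 in 5 libraries and was 1.99 in replicate 6, which was the highest of its group for 40 of the 42 genes. That library was one of the pair with almost no Xist. In replicate 5 of WT nonIR the summed epithelial, granulosa, oocyte, macrophage and neutrophil markers were within or just beyond the range of the other 5 libraries (for example 414 CPM of epithelial markers, group range 386 to 515). Its oviduct (68.9 CPM) and epithelial pregranulosa markers (35.7 CPM) were the highest of the group. In replicate 6 of Chek2-/- IR the epithelial (654 CPM, group median 366), epithelial pregranulosa (74.6, median 30.8), oviduct (98.7, median 51.5) and pericyte markers (534, median 380) were the highest of the group. Its granulosa markers were the lowest (1073, median 1645). The part of cell composition in these levels was not tested. In bulk tissue fewer cells of a type and less RNA per cell cannot be told apart. The counts of called genes below are therefore given with all libraries and again without these 2, which were picked for their levels of the same genes. Leaving out a WT nonIR and a Chek2-/- IR library for high values favours a rise in WT and a difference between genotypes. WT IR replicate 6, the highest of its group for 32 of the 42 genes, was kept, unlike WT nonIR replicate 5 and Chek2-/- IR replicate 6. Fold changes, p-values, calls and counts of groups that do not overlap, without either or both of them, describe the other libraries and are not independent evidence. The shares of all genes beside them are not a like reference, since the 2 libraries were not picked for those genes.

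**Figure D1:**
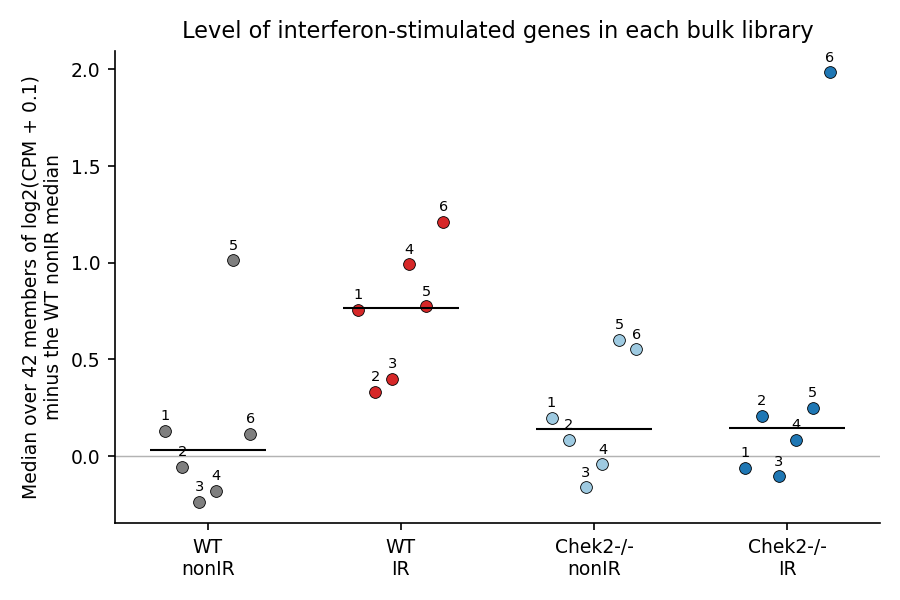
Median level of the 42 interferon-stimulated genes in each bulk library. The y axis is the median over the genes of log2(CPM + 0.1) minus the WT nonIR median, each point is 1 library with its replicate number, and lines are group medians. WT IR libraries lay between 0.33 and 1.21, and WT nonIR replicate 5 (1.01) and Chek2-/- IR replicate 6 (1.99) stood above the other 5 libraries of their groups.

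The first comparison asked what IR did to these genes in WT ovaries. With all libraries, 40 of the 42 genes were higher in IR than in nonIR ovaries, with a median log2 fold change of 0.53, where 48.7% of all 26790 genes tested were higher. None of the 42 passed the edgeR test at an adjusted p of 0.05, where 2.41% of all genes passed in either direction (1.53% higher). At an unadjusted p under 0.05, 15 of the 42 were higher and none lower, against 5.75% of all genes higher. DESeq2 called 1 of the 42 (Rtp4), where it called 1.83% of all genes higher, and limma-voom 3 (1.59% of all genes). With the replicate number as a block edgeR called 3 (Rtp4, Irf9 and Oas1a), where 1.55% of all genes were called higher. Without replicate 5 of WT nonIR, 4 were called (1.40% of all genes), and without replicate 6 of Chek2-/- IR, which is in neither group compared, 7 were called (1.79%). Without both, 27 were called higher, 13 of them by at least 2-fold, where 1.70% of all 26500 genes then tested were called higher (0.864% by at least 2-fold). The median log2 fold change was then 0.83 and 41 of the 42 were higher. No gene of the list had all 6 IR libraries above all 6 nonIR libraries, where 1.69% of all genes did. Without replicate 5 of WT nonIR, 14 of the 42 did, against 1.98% of all genes. That library was left out for its high levels of these same genes, which favours such a separation. The share of all genes is thus not a like reference for this count, nor for the calls without that library.

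By role, the OAS family held the largest log2 difference. Oas1a, which makes the 2′-5′-linked oligoadenylates that switch on RNase L, was at 0.153, 0.461 and 2.63 CPM in nonIR and at 1.72, 3.15 and 4.37 CPM in IR ovaries. All 6 IR libraries were above the nonIR median, and the only overlap came from nonIR replicate 5. The log2 fold change was 1.94 ± 0.68 (SE, adjusted p = 0.179). Oas2, a related enzyme, was at 0.153, 1.08 and 4.17 CPM and at 2.44, 4.29 and 7.33 CPM, again overlapping only through that library (log2 1.64 ± 0.60, adjusted p = 0.221). Oas3 was the member with the lowest log2 value, -0.17 ± 0.18 (adjusted p = 0.855). Oasl1 and Oasl2, OAS-like proteins, were between these. Without the 2 libraries, picked for high levels of these genes, 4 of the 5 OAS genes were called higher, Oas3 being the exception.

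Among the 9 antiviral effectors the smallest p of the whole list belonged to Rtp4, a chaperone of receptor transport that is strongly inducible by interferon. Its level was 2.11, 2.50 and 8.58 CPM in nonIR and 5.44, 8.16 and 12.3 CPM in IR ovaries. All IR libraries were above every nonIR library but replicate 5, and the log2 fold change was 1.27 ± 0.38 (adjusted p = 0.0812). Without the 2 libraries, picked for high levels of these genes, the adjusted p was 9.94e-06. Samd9l, a restriction factor, was at 8.39, 10.3 and 21.0 CPM against 15.3, 17.76 and 20.1 CPM (log2 0.58 ± 0.21, adjusted p = 0.196). Eif2ak2 encodes PKR, the kinase that stops translation when it binds double-stranded RNA. It was at 26.1, 28.8 and 43.8 CPM against 36.7, 43.2 and 50.8 CPM (log2 0.47 ± 0.17, adjusted p = 0.208). In both genes the single nonIR library above the lowest IR library was replicate 5. Rsad2, which encodes viperin, was at 0.931, 1.94 and 43.9 CPM against 3.29, 7.09 and 20.2 CPM. The highest value of Rsad2 was thus in a nonIR library, and its log2 fold change was -0.09 ± 0.96 (adjusted p = 0.999) although all 6 IR libraries were above the nonIR median. Without the 2 libraries it was 2.03 and was still not called (adjusted p = 0.157). Bst2, which encodes tetherin, was at 94.97, 106 and 123 CPM against 107, 110 and 123 CPM (log2 0.06 ± 0.09).

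In the ISG15 system and the IFIT family, Isg15, Ifit1 and Ifit3b overlapped only through nonIR replicate 5, and the other 5 genes overlapped through further libraries as well. Isg15 was at 1.49, 2.55 and 11.998 CPM in nonIR and at 4.74, 8.80 and 15.4 CPM in IR ovaries (log2 1.21 ± 0.61, adjusted p = 0.475). Every IR library was above 5 of the 6 nonIR libraries. Usp18, the protease that removes ISG15 and dampens the type I receptor, was at 1.02, 1.53 and 8.31 CPM against 1.401, 4.05 and 6.27 CPM (log2 0.59 ± 0.59, adjusted p = 0.835, and 1.46 without nonIR replicate 5). Herc6, a ligase of ISG15, and Trim25 also had log2 values above 0. Ifit1 was at 0.356, 1.56 and 21.8 CPM against 4.204, 11.6 and 17.1 CPM. The IR median of Ifit1 was above 5 of the 6 nonIR libraries, yet the log2 fold change was 1.16 ± 0.85 (adjusted p = 0.717). With the 2 libraries picked for high levels of these genes left out it was 3.03 (adjusted p = 0.000628), the largest value of any member in that fit. Ifit3 was at 0.497, 2.34 and 28.8 CPM against 2.42, 6.26 and 16.7 CPM (log2 0.16 ± 0.94, adjusted p = 0.994). Its near-identical copy Ifit3b was at 0.0509, 0.670 and 10.0 CPM against 1.401, 3.33 and 4.47 CPM (log2 0.51 ± 0.92, adjusted p = 0.938). All 4 IFIT genes were higher in IR ovaries, and none reached an unadjusted p under 0.05.

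Of the 3 transcription factors none was called with all libraries and no replicate block. Irf9, the DNA-binding part of ISGF3, was at 21.5, 25.4 and 34.8 CPM in nonIR and at 34.4, 35.5 and 51.7 CPM in IR ovaries (log2 0.54 ± 0.17, adjusted p = 0.113). All IR libraries exceeded 5 of the 6 nonIR libraries. Stat2 was at 33.7, 35.3 and 48.3 CPM against 35.8, 43.4 and 53.6 CPM (log2 0.22 ± 0.13, adjusted p = 0.588). Irf1, which gamma interferon induces through GAS, was at 54.5, 57.9 and 66.5 CPM against 60.1, 61.3 and 73.0 CPM (log2 0.09 ± 0.07, adjusted p = 0.735), and nonIR replicates 1 and 4 were above the IR median. When the 2 libraries picked for high levels of these genes were left out, Irf9 and Stat2 were called higher and Irf1 was not.

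The GTPases that attack the vacuoles of intracellular parasites were all higher, 8 of 8, with log2 values from 0.10 to 1.24. Irgm1, a regulator of the others, was at 18.2, 20.2 and 37.1 CPM in nonIR and at 27.1, 37.8 and 57.2 CPM in IR ovaries (log2 0.69 ± 0.26, adjusted p = 0.233). Iigp1 was at 1.66, 2.18 and 16.4 CPM against 3.24, 7.46 and 34.2 CPM (log2 1.24 ± 0.69, adjusted p = 0.541, and 0.51 without IR replicate 6 or 2.23 without nonIR replicate 5). For both genes the highest nonIR library was replicate 5 and the highest IR library replicate 6. Dtx3l, a ubiquitin ligase that works with Parp9, was at 13.7, 14.9 and 25.6 CPM against 18.8, 24.04 and 29.9 CPM (log2 0.50 ± 0.19, adjusted p = 0.240), and with Parp9 and Parp14 it made a group in which 3 of 3 were higher (0.50 to 0.61). The remaining members, Ifi35, Ifi44, Xaf1, Epsti1, Lgals3bp and Sp100, were higher by 0.28 to 1.01. The neutrophil-rich library of WT IR was not among the high ones, with a median level of 0.40 where the group median was 0.77. Epithelial markers had a median of 430 CPM (386 to 515) in nonIR and 456 CPM (287 to 751) in IR ovaries and macrophage markers 44.0 and 46.6 CPM.

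**Figure D2:**
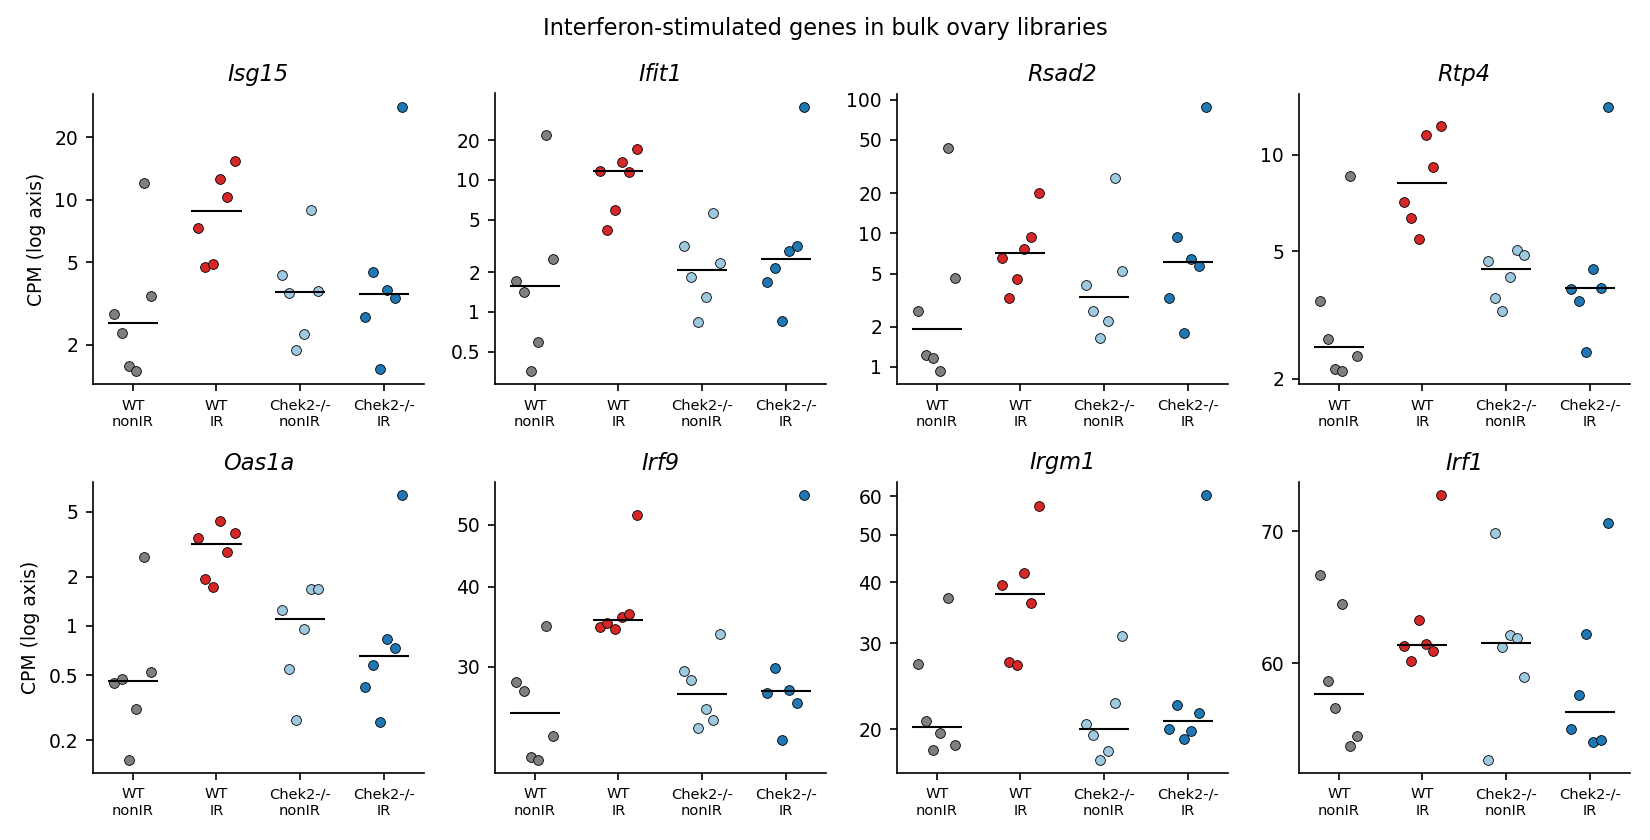
CPM of 8 interferon-stimulated genes in each bulk library, on log axes. Points are libraries in order of replicate number from left to right and lines are medians of 6. Isg15 had medians of 2.55 CPM in WT nonIR and 8.80 CPM in WT IR ovaries, while Irf1 medians were 57.9 and 61.3 CPM, and replicate 6 of Chek2-/- IR was the highest of its group in all 8 panels.

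The second comparison repeated this in Chek2-/- ovaries. With all libraries 40 of the 42 genes were again higher in IR ovaries, with a median log2 fold change of 0.40, where 49.9% of all genes were higher. None was called by edgeR, DESeq2 or limma-voom, where edgeR called 0.0112% of all genes in either direction. At an unadjusted p under 0.05 the count was 1 (Oas3, log2 0.46 ± 0.18), against 2.12% of all genes higher. Without replicate 6 of Chek2-/- IR, only 4 of the 42 were higher and the median was -0.16, so that this 1 library decides the direction. Without both libraries none was called either (0.0113% of all genes were). These fits kept replicate 6 of Chek2-/- nonIR, the other library with almost no Xist (median level 0.55, epithelial markers 780 CPM). The nonIR and IR groups were thus not matched in this respect. Isg15 was at 1.87, 3.57 and 8.95 CPM in nonIR and at 1.53, 3.52 and 28.2 CPM in IR ovaries. The medians were nearly equal and the 28.2 CPM was replicate 6. The log2 fold change of Isg15 was 0.83 ± 0.61 with all libraries and -0.39 without the 2. Ifit1 was at 0.842, 2.08 and 5.57 CPM against 0.856, 2.51 and 35.9 CPM (log2 1.62 ± 0.88, and -0.23 without the 2). Rtp4 was at 3.25, 4.39 and 5.04 CPM against 2.42, 3.82 and 14.1 CPM (log2 0.33 ± 0.37, and -0.25 without the 2). Irf9 was at 24.1, 27.2 and 33.8 CPM against 23.1, 27.5 and 55.6 CPM (log2 0.19 ± 0.17, and -0.05 without the 2). In these genes the 5 other IR libraries lay within or below the nonIR range. No member had IR libraries all above nonIR libraries (0.0896% of all genes did), with or without replicate 6 (0.179% without it).

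The difference between the genotypes in the effect of IR was tested as an interaction, WT minus Chek2-/-. With all libraries 28 of 42 values were above 0, with a median of 0.20 on the log2 scale, where 49.1% of all genes were above 0. Without replicate 6 of Chek2-/- IR alone it was 41 of 42 with a median of 0.70, and limma-voom gave 39 of 42 with 0.43. None was called by edgeR, DESeq2 or limma-voom, where edgeR called 1.03% of all genes in either direction (0.694% above 0). At an unadjusted p under 0.05 edgeR gave 1 (Oas3, -0.63 ± 0.26), in the direction of a lower value in WT, where 9.14% of all genes were under it in either direction. Rtp4 had an interaction of 0.95 ± 0.53 (adjusted p = 0.647). Without the 2 libraries 41 of 42 values were above 0, the median was 0.99, and 13 genes were called, where 0.879% of all genes were called higher. These 13 were Rtp4 (2.03, adjusted p = 0.000334), Oas1a, Eif2ak2, Dtx3l, Ifit1, Samd9l, Irf9, Isg15, Oas2, Parp9, Oasl1, Lgals3bp and Parp14. Because the libraries were left out for their levels of these genes, that count describes the other 22 libraries and is not independent evidence.

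The last bulk comparison set the genotypes against each other without IR. In Chek2-/- against WT nonIR ovaries 19 of 42 genes were higher, the median log2 difference was -0.04 (51.7% of all genes were higher), and none was called by edgeR, DESeq2 or limma-voom, where edgeR called 5.34% of all genes in either direction (3.12% higher). At an unadjusted p under 0.05 the count was 1, Bst2, where 21.6% of all genes were in either direction. Bst2 was at 79.7, 88.6 and 112 CPM in Chek2-/- and at 94.97, 106 and 123 CPM in WT nonIR ovaries, a log2 difference of -0.26 ± 0.09 (adjusted p = 0.0920), and it passed only without replicate 5 of Chek2-/- nonIR. The direction was not stable, with 24 of 42 higher and a median of 0.022 by limma-voom, and 36 of 42 with a median of 0.22 without replicate 5 of WT nonIR. Leaving out replicate 3 or 4 of Chek2-/- nonIR also turned the median to 0.019 and 0.021. Without the 2 libraries 36 were again higher (median 0.23) and 4 were called higher in Chek2-/- ovaries, Rtp4, Oas1a, Samd9l and Sp100, where 4.71% of all genes were called higher. Rtp4 was then higher by 0.75 (adjusted p = 0.0325). Replicate 5 of Chek2-/- nonIR had 10529 CPM of erythroid markers, and their part in these values was not tested.

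The rest of the pathway was followed in lists of 10 ligands, 9 receptors and kinases, and 9 signalling factors and brakes. Only 3 of the 10 ligands had enough counts to be tested (Ifnl2, Ifne and Ifnab). Ifnl2, a type III interferon, had counts in all 6 WT IR libraries, 3 to 10 counts or 0.145, 0.276 and 0.504 CPM, and 0 counts in the other 18 libraries. The WT IR level was at least 14.4-fold higher than in WT nonIR and at least 15.99-fold higher than in Chek2-/- IR ovaries, against a floor of 3 counts over the group. It was the only gene of the 3 lists to be called (edgeR adjusted p = 0.00307), and it rests on few reads. The call was lost with a replicate block (adjusted p = 0.0864), and no ligand was called in the interaction (lowest adjusted p = 0.221). Its near-identical copy Ifnl3 had 0 to 3.28 estimated counts in WT IR libraries and shares reads with it. Ifne, a type I interferon of the reproductive tract, had 0 to 7 counts in WT IR libraries and was not called. No receptor or kinase was called in WT IR against nonIR ovaries, and their log2 values lay between -0.14 and 0.18. Ifnlr1, the specific chain of the lambda receptor, was at 1.47, 1.96 and 2.87 CPM and at 1.902, 2.32 and 2.60 CPM. Of the signalling factors and brakes none was called with all libraries. Irf7 was at 1.78, 2.74 and 9.84 CPM in nonIR and at 4.54, 6.72 and 11.1 CPM in IR ovaries. After the 2 libraries were left out, Irf7 and Socs1 of that list were among those called higher in WT.

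The single-cell libraries held 40594 barcodes, of which 36524 were kept as cells, with a median of 13908 to 17135 UMIs per cell. With 1 library per condition no test between conditions was possible, and the intervals given are exact 95% Poisson limits of a ratio or binomial limits of a share, which cover counting error only. Pairs of libraries shared 30 to 73 barcodes (0.316% to 0.710% of the smaller library). Summed UMIs of a class are given as CPM of all UMIs of that class. Counts of members past 1.5-fold take the genes with at least 50 UMIs over the nonIR and IR libraries of a genotype together. A gene low in nonIR can enter through the IR library alone, so these counts cover other genes in WT than in Chek2-/-, favour genes that differ, and are given as a description. Clusters were formed without the interferon genes and were named from marker lists. The epithelial-like cells (Krt19, Upk3b, Krt7, with 8 of 8 markers) numbered 131 and 260 in WT nonIR and IR and 178 and 132 in Chek2-/- nonIR and IR. Granulosa-like cells (Amh, Hsd17b1, Inhbb) numbered 3052, 3630, 3274 and 3532 and oocyte-like cells (Dppa3, Ooep, Zp3) 195, 165, 75 and 138 in the same order. A cluster led by globin genes had 5 of 7 erythroid markers but also 7 of 8 granulosa markers, and Rsad2 was among its 10 leading genes. The epithelial-like cluster also had Lgr5 among its 10 leading genes. Lgr5 and Gng13, used as markers of epithelial pregranulosa cells, had a mean of 327 CPM there and 16.6 CPM in the next highest cluster. Whether the epithelial-like class holds both cell types was not tested.

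**Figure D3:**
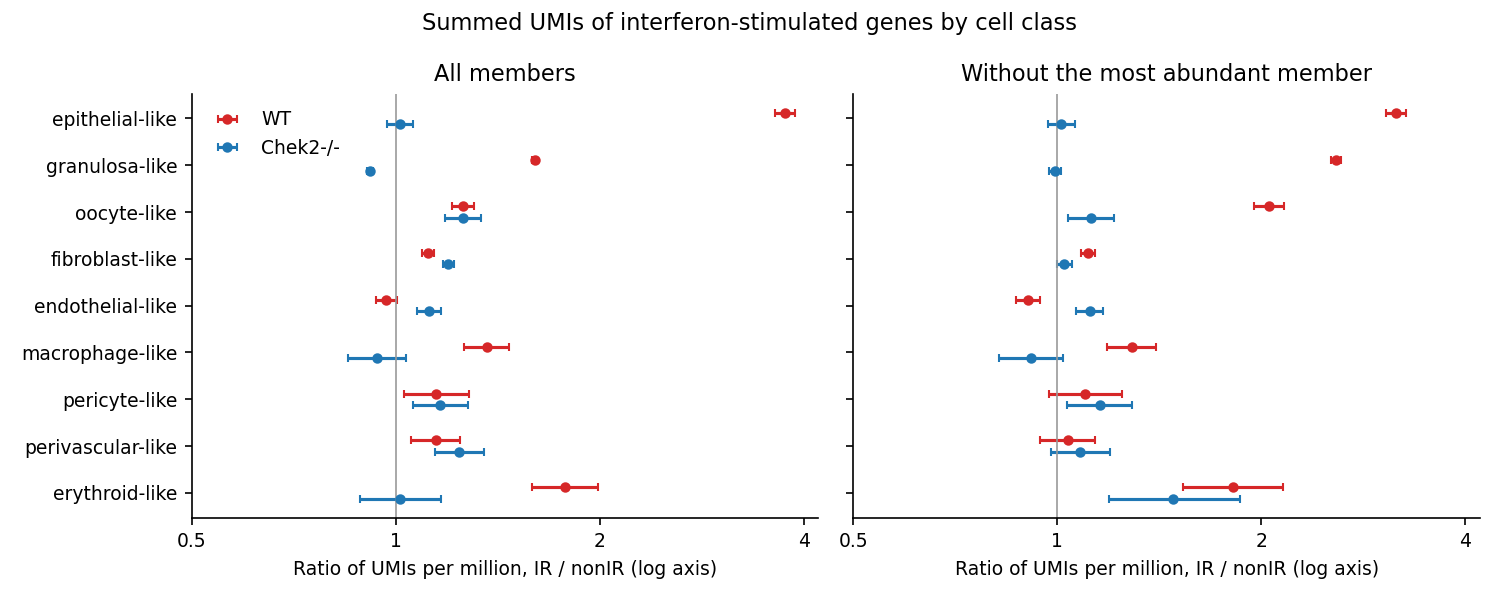
Ratio of summed UMIs of interferon-stimulated genes as CPM, IR over nonIR, by cell class on a log axis. Points are 1 library over another, bars exact 95% Poisson limits, for all members (left) and without the most abundant one in the class (right). The WT ratio was 3.76 in epithelial-like and 1.60 in granulosa-like cells, and the Chek2-/- ratios of these classes were 1.02 and 0.917.

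The IR over nonIR ratio of all members was highest, among the 9 classes, in the epithelial-like cells of WT ovaries. Their summed members were at 944 CPM in nonIR and 3548 CPM in IR cells, a ratio of 3.76 (3.63 to 3.89), where in Chek2-/- epithelial-like cells the ratio was 1.02 (0.972 to 1.06). Of the 36 members with at least 50 UMIs over the pair of libraries, 35 had a ratio of at least 1.5 in WT, where 7.59% of all genes with that many UMIs did. Gbp2 was the exception at 1.15 (1.07 to 1.25). In Chek2-/- 3 of 27 were at or above 1.5 (3.28% of all genes) and 3 were at or below the inverse (1.84% of all genes).

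Isg15 went from 131 to 4768 UMIs in WT epithelial-like cells, a ratio of 21.3 (17.9 to 25.6), and from 147 to 171 UMIs in Chek2-/- (1.07, 0.853 to 1.34). Ifit1 went from 56 to 2253 UMIs (23.6, 18.1 to 31.3) and Ifit3 from 5 to 646 UMIs (75.7, 32.3 to 234). Their Chek2-/- ratios were 1.02 (0.669 to 1.56) and 0.766 (0.297 to 1.94). Ifit1 and Ifit3 were thus far higher in WT IR than in WT nonIR cells, while their Chek2-/- limits included 1. Oas1a had 0 UMIs in nonIR and 63 in IR cells of WT, at least 12.3-fold higher against a floor of 3 UMIs in the group. Rsad2 went from 10 to 539 UMIs (31.6, 17.0 to 66.2), Rtp4 from 45 to 826 (10.8, 7.97 to 14.9) and Iigp1 from 31 to 683 (12.9, 9.01 to 19.2). In these genes the counting limits were far above 1. The 3 transcription factors were Stat2 at 5.78 (4.12 to 8.34), Irf9 at 2.81 (2.20 to 3.62) and Irf1 at 1.67 (1.27 to 2.22). The ratio of Irf1 in Chek2-/- epithelial-like cells was also above 1.5, at 2.18 (1.73 to 2.77). Irf7 of the signalling list was at 6.65 (4.63 to 9.87) in WT, against 0.613 (0.366 to 1.01) in Chek2-/-. The sum of the 8 epithelial markers was 4427 and 4848 CPM in WT nonIR and IR cells of the class, that of dividing markers 250.3 and 553 CPM, and that of perivascular markers 53.4 and 175.5 CPM. In Chek2-/- the dividing markers were at 402 and 616 CPM and the perivascular markers at 94.8 and 88.6 CPM. The part of these markers in the ratios was not tested.

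**Figure D4:**
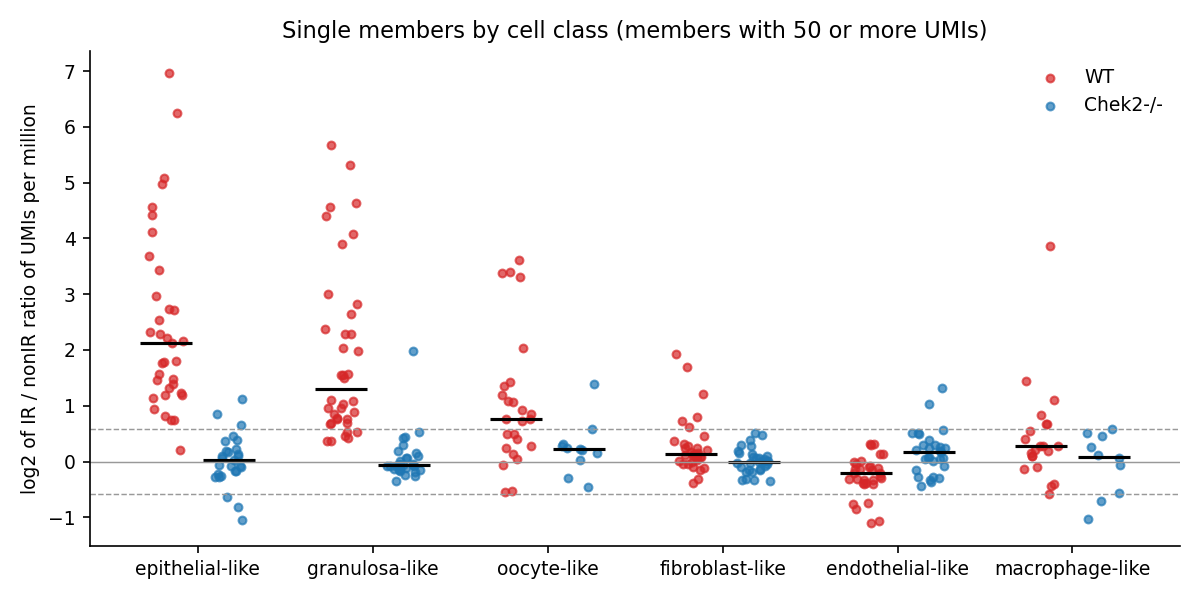
Ratio of CPM, IR over nonIR, of each interferon-stimulated gene with at least 50 UMIs in the class, as log2. Each point is 1 gene, black lines are medians and dashed lines mark 1.5-fold. Oas1a in WT epithelial-like cells, with 0 UMIs in nonIR, cannot be drawn. In that class all plotted WT genes but Gbp2 lay above the upper dashed line, as did 32 of 38 in WT granulosa-like cells, 3 of 27 in Chek2-/- epithelial-like and 1 of 31 in Chek2-/- granulosa-like cells.

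In granulosa-like cells the summed members were at 932 CPM in WT nonIR and 1495 in WT IR cells, a ratio of 1.60 (1.59 to 1.62), against 0.917 (0.907 to 0.927) in Chek2-/-. Bst2, the member with the most UMIs in the class, had a ratio of 1.28 (1.27 to 1.299), and without it the ratios were 2.58 (2.53 to 2.62) and 0.993 (0.973 to 1.01). Of 38 members with enough UMIs 32 had a ratio of at least 1.5 in WT (3.74% of all genes did). In Chek2-/- this held for 1 of 31, Rsad2, from 9 to 42 UMIs (3.95, 1.89 to 9.22), where 1.70% of all genes did. Isg15 went from 189 to 3415 UMIs in WT (17.0, 14.6 to 19.7) and from 174 to 173 in Chek2-/- (0.841, 0.677 to 1.04). Ifit1 went from 38 to 1613 UMIs in WT (39.8, 28.9 to 56.5), Rtp4 from 386 to 3309 (8.05, 7.24 to 8.96) and Irf9 from 961 to 3009 (2.94, 2.73 to 3.16). The Chek2-/- ratios of Rtp4 and Irf9 were 0.971 (0.846 to 1.12) and 0.947 (0.865 to 1.04). Irf1 had ratios of 1.81 (1.66 to 1.99) in WT and 1.33 (1.24 to 1.44) in Chek2-/-. Isg15 was at 664 CPM in WT IR epithelial-like cells and at 43.1 in granulosa-like cells. In nonIR and IR granulosa-like cells the epithelial markers were at 42.6 and 69.8 CPM in WT and 45.9 and 41.7 CPM in Chek2-/-, and quiescent pregranulosa markers at 852 and 1295 CPM in WT and 968 and 781 CPM in Chek2-/-. Their part in these ratios was not tested.

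The class consisted of 4 clusters, numbered 1, 2, 9 and 10, of which cluster 2 held the most cells in every library. Cluster 10, led by Cst12, Crygb and Dmrta1, made up 27.2% of the class in WT nonIR and 36.0% in WT IR, and 33.9% and 23.3% in Chek2-/- nonIR and IR. The WT ratio of all members was above 1 in each of the 4 clusters, with 1.46 in cluster 1, 1.497 in cluster 2, 1.74 in cluster 9 and 1.66 in cluster 10. The Chek2-/- ratios were 0.902, 0.895, 0.940 and 1.04 in the same order. Without Bst2 the WT ratios were 2.03, 2.33, 2.23 and 2.87, highest in cluster 10. The Chek2-/- ratios without Bst2 were 0.969, 0.983, 1.18 (1.09 to 1.28) and 1.15 (1.10 to 1.19). Those of clusters 9 and 10 were thus above 1 in Chek2-/- as well. The part of the cluster shares in the class ratios was not tested. In WT Isg15 went from 7.57 to 90.4 CPM in cluster 10 and from 0.948 to 19.9 in cluster 2. In Chek2-/- it went from 5.33 to 7.13 CPM in cluster 10, with 111 UMIs in each library, and from 1.18 to 0.760 in cluster 2. The UMIs lay in a minority of granulosa-like cells. Over 10 core genes (Ifit1, Ifit2, Ifit3, Ifit3b, Isg15, Rsad2, Usp18, Oasl1, Cmpk2, Mx1), the 5% of WT IR granulosa-like cells with the most UMIs held 66.8% of them, and the median cell had 0. In WT nonIR this share was 51.8%, and in Chek2-/- nonIR and IR 46.7% and 48.3%, also with a median of 0.

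The share of cells with at least 3 core UMIs was compared after thinning each cell to 3000 UMIs. In WT IR epithelial-like cells it was 99 of 241 cells, 41.1% (34.8 to 47.6), after 19 shallower cells had been left out. It was 0 of 130 cells in WT nonIR, 0 of 175 in Chek2-/- nonIR and 0 of 129 in Chek2-/- IR, counts that allow up to 2.80%, 2.09% and 2.82%. In WT IR granulosa-like cells it was 99 of 3493 cells, 2.83% (2.31 to 3.44), against 2 of 3040 in WT nonIR and 0 in both Chek2-/- libraries. Fibroblast-like cells, the largest class, gave 0.0452% to 0.0833% in all 4 libraries and perivascular-like cells gave 0, with fibroblast median depths of 11255.5 to 13290 UMIs against 14636 to 21443 in epithelial-like cells. Without thinning the epithelial-like share was 74.6% in WT IR and 19.7% to 29.5% in the other libraries. After thinning, endothelial-like cells (1.27% to 3.42%) and macrophage-like cells (2.17% to 5.45%) had such cells in every library, IR or not. Oocyte-like cells gave 3 of 118 in WT IR (2.54%, 0.527 to 7.25), after 47 shallower cells had been left out, and 0 in the other libraries.

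Oocyte-like cells of WT carried more of several members after IR on the CPM scale. Isg15 went from 68 to 327 UMIs, a ratio of 10.4 (7.99 to 13.7), and Ifit1 from 30 to 137 (9.88, 6.62 to 15.2), while in Chek2-/- the UMIs were 5 and 14 for Isg15 and 5 and 2 for Ifit1. Of the UMIs of the 10 core genes in WT IR oocyte-like cells, 9 of the 165 cells held 75.5%, 1 cell held 181 of 735, and the median cell had 0. Of 25 members 15 had a ratio of at least 1.5 in WT, where 13.2% of all genes did, and 1 of 11 in Chek2-/- (6.91% of all genes). The sum of all members had a ratio of 1.26 in both genotypes (WT 1.21 to 1.31), and 2.05 in WT without Bst2, which itself was lower (0.686, 0.644 to 0.729). Several values moved with these ratios. The median depth of WT oocyte-like cells was 181666 UMIs in nonIR and 17936 in IR, so that per cell the ratio of the sums was 0.687. Epithelial markers in the class were at 17.2 and 114 CPM in WT nonIR and IR, and granulosa markers at 612 and 284. Macrophage markers were at 8.06 and 47.6 CPM, endothelial markers at 16.5 and 48.9 and perivascular markers at 47.1 and 103 in the same cells. In Chek2-/- these 3 lists were at 9.86 and 10.5, 14.4 and 14.99, and 47.9 and 51.7 CPM. Their part in the oocyte ratios was not tested.

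Lambda interferon itself was found in oocyte-like cells. In the WT IR library 35 of 165 oocyte-like cells (21.2%, 15.2 to 28.2) held 97 UMIs of Ifnl2 and 8 of Ifnl3, at most 12 in 1 cell. None of the 9614 other cells of that library held any, which allows a share of cells with a UMI of up to 0.0312%, by an approximation and not the exact binomial limit. The other classes of that library had median depths of 6921 to 19317.5 UMIs, so this limit does not bound the share of cells that express the genes. None of the 408 oocyte-like cells of the other 3 libraries held any, which allows up to 0.735% by the same approximation. The oocyte-like cells with a lambda UMI had a median of 220007 UMIs and those without 4929.5 UMIs. The members were at 199 CPM in the oocyte-like cells with a lambda UMI and 460 CPM in those without. Ifnlr1 was too sparse to compare, with 7 and 4 UMIs in WT epithelial-like and 32 and 39 in WT granulosa-like cells, nonIR and IR.

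**Figure D5:**
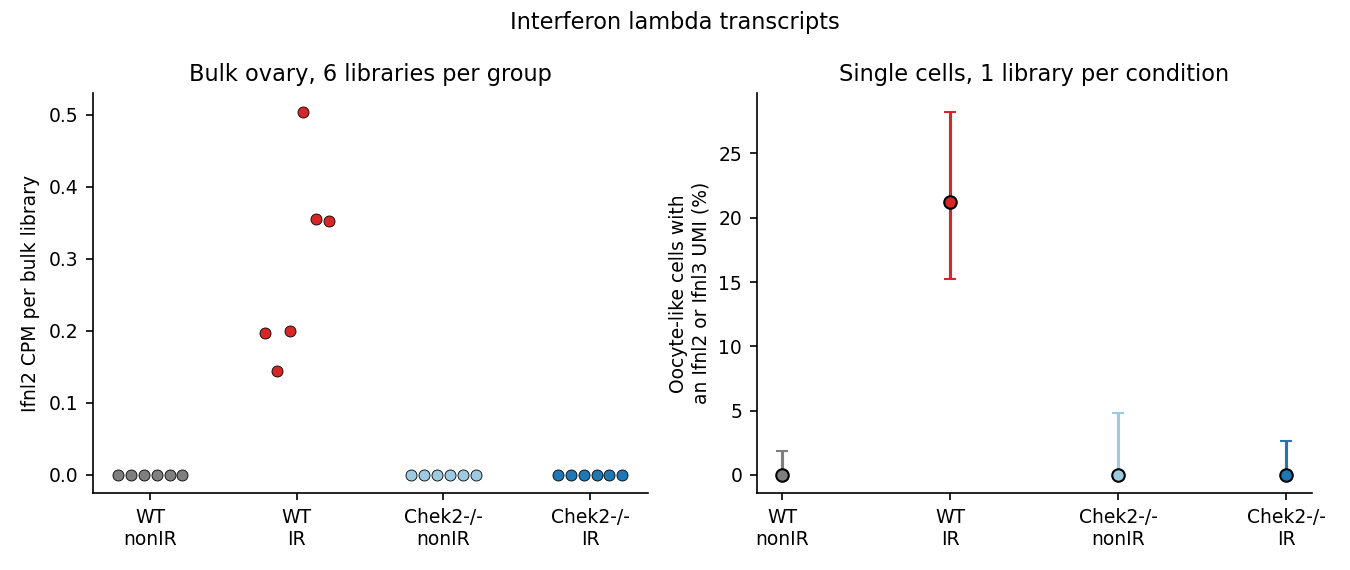
Interferon lambda transcripts in bulk and single cells. Left, Ifnl2 CPM in each of 24 bulk libraries; right, percent of oocyte-like cells with an Ifnl2 or Ifnl3 UMI in each single-cell library with exact 95% binomial limits. Values above 0 were seen only in WT IR, between 0.145 and 0.504 CPM in bulk and 21.2% of oocyte-like cells.

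The cluster led by globin genes, with 27 to 43 cells per library, had ratios of 1.78 (1.59 to 1.99) in WT and 1.02 (0.886 to 1.17) in Chek2-/-. Without the member with most UMIs in that cluster they were 1.82 (1.53 to 2.15) and 1.48 (1.19 to 1.86), so that the lower Chek2-/- value rests on that member. In the remaining classes the ratios of all members lay between 0.939 and 1.36. In the globin-led cluster epithelial markers were at 13.9 and 77.8 CPM in WT and 60.1 and 69.7 CPM in Chek2-/-, and macrophage markers at 9.63 and 28.5 CPM in WT, whose part was not tested. In fibroblast-like cells the ratio of all members was 1.12 (1.09 to 1.14) in WT and 1.196 (1.18 to 1.22) in Chek2-/-. Of 33 members, 6 were at or above 1.5 in WT (2.04% of all genes), among them Ifit1 from 23 to 87 UMIs (3.79, 2.37 to 6.29) and Isg15 from 148 to 245 (1.66, 1.35 to 2.05). In Chek2-/- 0 of 31 were (2.51% of all genes). Epithelial markers in this class were at 5.30 and 12.9 CPM in WT and 7.79 and 4.92 CPM in Chek2-/- nonIR and IR, and their part was not tested. Endothelial-like cells had a high level in every condition, with the members at 1398 CPM in WT IR and 1443 in WT nonIR, a ratio of 0.968 (0.934 to 1.00). None of their 31 members was at or above 1.5 in WT (2.28% of all genes) and 5 were at or below the inverse (2.87% of all genes), Rsad2 among them from 48 to 27 UMIs (0.475, 0.285 to 0.777). Erythroid markers in this class were at 2255 and 70.2 CPM in WT and 2694 and 592 CPM in Chek2-/- nonIR and IR, and their part was not tested. In Chek2-/- the ratio was 1.12 (1.08 to 1.17), and 2 of 29 were at or above 1.5 (2.41% of all genes). Macrophage-like cells, 49 to 93 per library, had ratios of 1.36 (1.26 to 1.47) in WT and 0.939 (0.851 to 1.04) in Chek2-/-. With finer clusters (Leiden resolution 1.0) the WT ratio turned to 0.824. Only 146 cells were then named macrophage-like, 34 in WT nonIR and 53 in WT IR. Another cluster of 148 cells had 1 of 8 macrophage markers and was left unnamed. The class used here held 294 cells, so its values may include cells with few macrophage markers. Of 21 members 6 were at or above 1.5 in WT (7.44% of all genes), Ifit1 going from 4 to 72 UMIs. In WT IR 1 of the 93 macrophage-like cells held 211 of the 313 core UMIs and 5 cells held 82.1%, so that these values rest on few cells. In Chek2-/- 0 of 10 were (6.93% of all genes) and 2 were at or below the inverse (5.78%). Epithelial markers in the macrophage-like class were at 5.16 and 252 CPM in WT nonIR and IR, and neutrophil markers at 4245 and 955 CPM in WT and 5982 and 16.3 CPM in Chek2-/- nonIR and IR. The part of these markers in the macrophage ratios was not tested. Pericyte-like and perivascular-like cells had ratios of 1.15 to 1.24 in both genotypes.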

How the data were processed

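Members and lists were chosen with earlier results of these data known. For bulk libraries the authors ran Salmon 1.3.0 and deposited estimated counts per gene, unscaled. For single cells they ran Cell Ranger (mm10) and deposited UMI counts per gene and barcode before their filters on cells. Bulk counts were rounded, genes under 10 counts over 24 libraries were dropped, and 26790 genes were fitted by edgeR 4.0.16 (TMM, quasi-likelihood, 1 coefficient per group, Benjamini-Hochberg over all genes, R 4.3.3), with DESeq2 1.42.0 and limma-voom (limma 3.58.1) as alternatives. The p-values measure the spread between libraries. Depth was 17825167 to 32605747 counts per bulk library.

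Cells had at least 1000 genes, at most 20% mitochondrial and 50% ribosomal UMIs and no Scrublet call. Clusters (scanpy 1.11.5, Leiden resolution 0.5, 2000 variable genes, 30 components) were formed without 159 interferon and context genes and named from marker lists, needing 60% of a list and at least 3 markers. UMIs were summed per class and library.

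Named genes were the 8 members with the smallest p in WT, 11 fixed members, and in single cells members past 1.5-fold with at least 50 UMIs. Oas3, Bst2 and Gbp2 were added after their values were seen. The edgeR test and the ratio limits were checked on simulated counts. The simulated bulk counts had no library that stood apart and no genes that moved together. That check thus does not cover the spread of these genes.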

Additional observations from a re-analysis of the deposited data

Results flagged for a closer look

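Groups of 6 values were checked for a highest or lowest library that stands clear of the others by more than Dixon's limit of 0.625 of the range. Of 76 such groups 37 were past it. The limit lets about 1 in 20 pass for normally distributed values, but CPM are skewed and some genes were picked for a small p. That rate is thus not a reference for this count. Since the genes move together in a library, the groups are also not independent.

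In replicate 5 of WT nonIR ovaries the values past the limit were Rtp4 8.58, Oas1a 2.63, Samd9l 21.0, Eif2ak2 43.8, Oas2 4.17, Stat2 48.3, Isg15 11.998, Ifit1 21.8, Ifit3 28.8, Ifit3b 10.0, Rsad2 43.9, Usp18 8.31 and Iigp1 16.4 CPM, with the median level of the list at 1.01. In replicate 6 of Chek2-/- IR ovaries they were Rtp4 14.1, Irf9 55.6, Oas1a 6.29, Eif2ak2 65.4, Oas2 12.6, Irgm1 60.2, Dtx3l 38.5, Stat2 64.4, Isg15 28.2, Ifit1 35.9, Ifit3 57.6, Ifit3b 18.8, Rsad2 88.6, Usp18 14.4 and Iigp1 30.7 CPM, with the median level at 1.99. In replicate 6 of WT IR they were Irf9 51.7, Irf1 73.0, Rsad2 20.2 and Iigp1 34.2 CPM. In Chek2-/- nonIR they were Eif2ak2 43.0 CPM in replicate 6 and Isg15 8.95 and Rsad2 25.8 CPM in replicate 5. All of these were the highest of their group.

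The single-cell ratio of summed members in granulosa-like cells was 1.60 in WT and 0.917 in Chek2-/-, in opposite directions on the CPM scale, and the difference was not tested because each condition had 1 library. Without Bst2 the Chek2-/- ratio was 0.993 (0.973 to 1.01), and per cell it was 1.01, so that the opposite direction rests on Bst2 and on the scale.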

How the results depend on the processing

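The count of members called in WT IR against nonIR was 0 with RLE size factors, library totals, either other low-count filter or unrounded counts. It was 1 with DESeq2, 3 with limma-voom, 2 with only the 2 groups compared, and 0 to 7 leaving out 1 library (4 without WT nonIR replicate 5, 7 without Chek2-/- IR replicate 6). Without both, a setting chosen after seeing the data, 27 were called, 13 in the interaction and 4 in Chek2-/- against WT nonIR ovaries (0 to 1 leaving out 1 library). The Chek2-/- and interaction counts were 0 in every fit that left out 1 library. The log2 fold change of Rsad2 in WT turned to 1.23 with limma-voom and 2.03 without the 2 libraries, and that in Chek2-/- to -0.39 for Isg15, -0.23 for Ifit1, -0.25 for Rtp4 and -0.055 for Irf9 without them. Leaving out 1 library gave -0.26 to 1.88 for Ifit3 and -0.53 to 2.03 for Rsad2 in WT, and -0.39 to 1.23 for Isg15, -0.23 to 2.04 for Ifit1, -0.25 to 0.47 for Rtp4 and -0.055 to 0.26 for Irf9 in Chek2-/-. In WT the ranges were also wide for Ifit3b (0.27 to 2.48), Ifit1 (0.93 to 3.02), Isg15 (1.01 to 1.99), Oas1a (1.75 to 2.96) and Oas2 (1.42 to 2.36).

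With a replicate block 3 members were called in WT (Rtp4, Irf9 and Oas1a, adjusted p = 0.0238, 0.0403 and 0.0222, where 1.55% of all genes were called higher), Rsad2 turned to 0.99, and Ifnl2 lost its call (adjusted p = 0.0864). Deviations of same-numbered libraries correlated by 0.11 on average (-0.19 to 0.66), against -0.017 for other numbers, and 12 of 24 libraries correlated best with their own number, a hint of shared structure. The labels give no shared litter or day and not every pair correlated, so the fit without the block was kept.

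The single-cell ratios per cell in place of CPM were, for WT and Chek2-/-, 3.23 and 1.49 in epithelial-like, 1.44 and 1.01 in granulosa-like, 0.687 and 1.02 in oocyte-like, 1.15 and 1.31 in fibroblast-like, 0.888 and 1.39 in endothelial-like and 1.64 and 1.04 in macrophage-like cells. Without the member with most UMIs they were 3.16 in WT epithelial-like, 2.58 and 0.993 in granulosa-like, 2.05 and 1.12 in oocyte-like, 0.905 in WT endothelial-like and 1.02 in Chek2-/- fibroblast-like cells. With Scrublet calls kept they were 1.56 and 0.928 in granulosa-like and 1.01 in WT endothelial-like cells, and at Leiden resolution 1.0 1.58 in WT granulosa-like and 0.824 in WT macrophage-like cells, the latter a reversal.

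The counts that follow take higher and lower members together, with the share of all genes of that class in parentheses. Only counts that moved by more than 1.5-fold from the main setting, or to or from 0, are listed. Members past 1.5-fold, with a minimum of 20 UMIs, were 23 of 35 in WT (30.7%) and 4 of 21 in Chek2-/- oocyte-like cells (12%). They were 12 of 31 in WT (24.2%) and 7 of 24 in Chek2-/- macrophage-like cells (22.1%). In Chek2-/- they were also 6 of 36 in granulosa-like (7.63%) and 1 of 32 in fibroblast-like cells (7.01%). With 100 UMIs (2.29% to 23.98% of all genes) they were 3 in Chek2-/- epithelial-like and WT macrophage-like cells and 0 in endothelial-like cells of both genotypes and in Chek2-/- granulosa-like, macrophage-like and oocyte-like cells. At 2-fold they were 2 of 31, both lower, in WT endothelial-like (0.829%) and 2 of 27 in Chek2-/- epithelial-like cells (0.687%). They were 3 of 33 in WT fibroblast-like (1.80%) and 3 of 21 in WT macrophage-like cells (4.31%). In Chek2-/- macrophage-like cells it was 1 of 10, lower (3.82%). With Scrublet calls kept the Chek2-/- counts were 3 of 27 in epithelial-like (4.70%) and 2 of 32 in granulosa-like cells (4.02%). They were 2 of 11 in oocyte-like (8.91%) and 4 of 10 in macrophage-like cells (13.8%). At resolution 1.0 they were 2 of 31 in granulosa-like (4.27%) and 1 of 6 in macrophage-like cells (11.7%). The WT count was then 3 of 13 in macrophage-like cells (13.8%).

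The percent of epithelial-like cells with core UMIs, in the order WT nonIR, WT IR, Chek2-/- nonIR and Chek2-/- IR, was 23.7, 74.6, 19.7 and 29.5 without thinning and 13.1, 71.8, 14.3 and 17.1 for at least 1 UMI. For granulosa-like cells these were 0.917, 14.8, 0.519 and 0.708, and 2.83, 13.6, 2.39 and 2.22. For oocyte-like cells without thinning they were 15.9, 21.8, 10.7 and 11.6, and for at least 1 UMI 4.79, 16.9 and 4.27 in WT nonIR, WT IR and Chek2-/- IR. At 5000 UMIs they were 54.9 in WT IR and 2.31 in Chek2-/- nonIR epithelial-like and 5.05 in WT IR granulosa-like cells, and for at least 5 UMIs 27.4 and 1.49 in WT IR epithelial-like and granulosa-like cells. Causes were not tested.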
